A study of Mus musculus with 9 samples.

Results

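The genes described here are 28 genes of cholesterol synthesis, of its control by the transcription factor SREBP-2, and of cholesterol transfer, uptake and efflux. They were chosen by name, and all 28 were among the 21470 genes of the deposited table. The study measured RNA in mouse liver in 3 groups of 3 libraries: sham-operated animals (sham), animals whose bile duct was ligated (BDL), and animals with the same ligation that received ligustilide (BDL+LIG), a phthalide from Angelica and Ligusticum roots. Ligation blocks the outflow of bile and is used to produce cholestatic injury and fibrosis. Both BDL and BDL+LIG animals carry the ligation. The design text gives 10 mg/kg ligustilide, whereas the titles of those libraries carry the number 20, so the dose is given here as neither. The sources used here do not give strain, sex, age, time after surgery or feeding state. Nothing in the labels ties each library to a separate mouse, so p-values measure the spread between libraries, which may be technical.

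Liver cells build cholesterol from acetyl-CoA through mevalonate, farnesyl diphosphate, squalene and lanosterol, and lanosterol is then trimmed and reduced in a series of steps to cholesterol. When sterol is scarce in the endoplasmic reticulum, SCAP carries the SREBP-2 precursor to the Golgi, where it is cut, and the released fragment switches on most genes of the pathway. When sterol is plentiful, INSIG proteins hold SCAP back. The liver also converts cholesterol into bile acids and secretes it into bile, the route that ligation closes. Oxysterols act through LXR receptors in the other direction, on genes such as Abca1, which exports cholesterol, and Mylip, whose product marks lipoprotein receptors for degradation.

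SREBP binds its target promoters together with NF-Y and Sp1, so the promoters of the members were searched for the letters of these sites. RefSeq windows on build GRCm38.p6, from 250 bases before to 50 bases after a start site, matched 23 of the 28 members. Fdft1, Fdps, Soat2, Sqle and Stard4 had no entry. A gene counted if any of its windows held the letters, on either strand. The NF-Y box CCAAT stood in 20 of 23 members (87%), against 42.7% of the 8175 tested genes with a window. By window it stood in 20 of the 29 member windows, against 37.4% of all 32851 windows. The Sp1 box GGGCGG stood in 21 of 23 members (91.3%), against 68.1% of tested genes. By window it stood in 24 of 29, against 35.7% of all windows. The core of the sterol regulatory element, CACNCCAC, was in 3 members (13%), Hmgcs1, Acat2 and Insig1, against 7.8% of tested genes. By window it was in 3 of 29, against 6.24% of all windows. A match describes letters in these windows and is not a binding site. The 3 members without CCAAT were Abca1, Acat2 and Scap. The following, 5′ to 3′ along the gene's strand, are the 250 bases before the start sites of the 3 genes with the sterol element core (chr13:119690101-119690350 on the plus strand for Hmgcs1, chr17:12960726-12960975 on the minus strand for Acat2 and chr5:28071162-28071411 on the plus strand for Insig1), of Mvk, which had the most CCAAT boxes of the members (5, chr5:114444019-114444268, plus strand), and of Scap, the 1 member that fell after ligation (chr9:110333038-110333287, plus strand, the first of its 2 windows). Capitals mark the sterol element core and the NF-Y box, each in its own letters or, where it lies on the other strand, in the reverse complement.
Hmgcs1: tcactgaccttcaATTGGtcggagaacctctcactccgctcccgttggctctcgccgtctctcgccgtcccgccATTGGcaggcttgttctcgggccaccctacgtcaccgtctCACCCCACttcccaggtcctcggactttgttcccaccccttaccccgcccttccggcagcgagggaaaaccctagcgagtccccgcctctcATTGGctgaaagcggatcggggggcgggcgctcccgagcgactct
Acat2: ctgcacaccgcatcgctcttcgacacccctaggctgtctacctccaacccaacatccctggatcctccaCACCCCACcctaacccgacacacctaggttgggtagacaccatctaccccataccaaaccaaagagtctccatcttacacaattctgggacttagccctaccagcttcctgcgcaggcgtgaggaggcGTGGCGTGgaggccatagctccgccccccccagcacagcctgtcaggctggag
Insig1: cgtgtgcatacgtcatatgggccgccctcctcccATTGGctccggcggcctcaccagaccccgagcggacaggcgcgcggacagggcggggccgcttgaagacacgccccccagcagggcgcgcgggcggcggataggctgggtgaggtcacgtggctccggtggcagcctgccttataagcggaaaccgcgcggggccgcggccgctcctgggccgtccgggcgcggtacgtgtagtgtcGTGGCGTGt
Mvk: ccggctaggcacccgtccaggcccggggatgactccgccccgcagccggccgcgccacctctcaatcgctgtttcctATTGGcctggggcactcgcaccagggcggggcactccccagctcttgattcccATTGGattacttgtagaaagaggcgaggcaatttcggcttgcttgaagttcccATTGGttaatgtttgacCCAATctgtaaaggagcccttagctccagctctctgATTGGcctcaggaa
Scap: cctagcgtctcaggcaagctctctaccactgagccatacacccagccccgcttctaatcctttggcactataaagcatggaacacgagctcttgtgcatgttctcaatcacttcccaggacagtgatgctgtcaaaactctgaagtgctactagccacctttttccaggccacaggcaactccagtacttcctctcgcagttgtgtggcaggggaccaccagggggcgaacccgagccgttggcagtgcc

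In Hmgcs1 the core read CACCCCAC and began at position -136 from the start site, with 3 NF-Y boxes around it. In Acat2 there were 2 cores and no NF-Y box, and in Insig1 1 core, on the other strand, began at position -9.

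**Figure D1:**
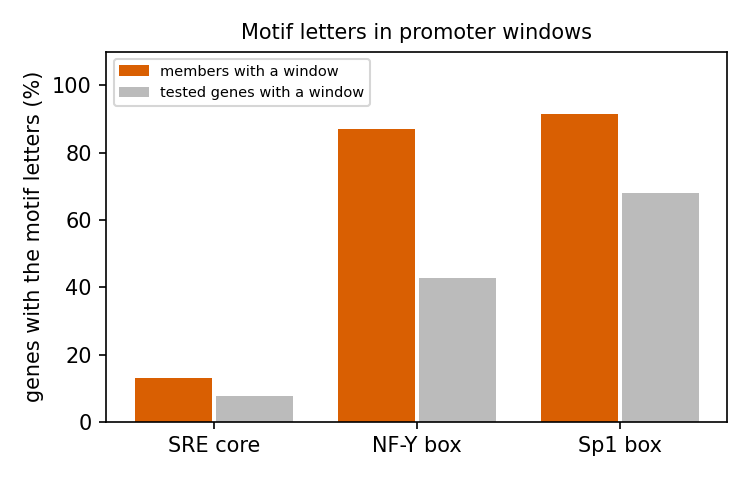
Bars give the percent of genes whose promoter window holds the letters of the sterol regulatory element core (SRE core), the NF-Y box or the Sp1 box, on either strand, for the 23 members (orange) and the 8175 tested genes (grey) with a window. The NF-Y box stood in 87% of the members and 42.7% of the tested genes.

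Values are FPKM, which divides fragments by gene length and library size, so levels can be compared between genes. A change is a difference between group means of log2(FPKM + 1), given ± SE by limma, and p-values were adjusted over all 10142 genes that reached 1 FPKM in at least 3 libraries, and a call means an adjusted p below 0.05. The whole fragments recovered from the values summed to between 34815965 and 40780517 per library, and Mylip, the lowest tested member in sham, rested on 71 to 97 fragments in sham libraries. Sham library 1 differed from its group, with Pearson correlations across genes of 0.974 and 0.964 to sham 2 and 3, which correlated at 0.989 with each other. Over all tested genes the median change was 0.16 for BDL against sham, 0.18 for BDL+LIG against BDL and 0.34 for BDL+LIG against sham, and the members' changes are to be read against these medians. Of the 28 members 27 were tested. Ggps1, which makes geranylgeranyl diphosphate for protein prenylation, stayed below the filter at 1.24, 0.551 and 0.484 FPKM in the sham libraries, 0.672, 0.834 and 1.09 in the BDL libraries and 0.837, 0.926 and 0.832 in the BDL+LIG libraries.

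After ligation the RNA of most of the listed cholesterol synthesis genes rose, but not of all those after lanosterol. In BDL against sham 18 of the 27 tested members rose, 1 fell and 8 were not called, where 22.9% of all tested genes rose, 6.76% fell and 29.7% were called in either direction. The groups did not overlap for 19 members that were higher and 2 that were lower, against 33.7% of all tested genes higher and 45% in either direction. The median change of the members was 0.89. Among the 20 synthesis enzymes, 16 of 19 tested rose and 0 fell, with a median of 1.07 and a range from -0.35 to 2.17. With median-of-ratios scaling, which moved the median of all genes to -0.03 and the share of rises among all calls from 77.2% to 52% (51.9% with quantile, 51.2% with length-trend scaling, 82.7% in TPM), 18 members rose and 3, Scap, Sc5d and Soat2, fell. Without sham library 1, 20 rose and 1 fell, the gains being Insig1 and Abca1.

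Between ligated mice with and without ligustilide, these genes were called about as often as all tested genes. In BDL+LIG against BDL 3 of 27 members, Scap, Mylip and Lbr, were higher and 0 were lower, where 9.98% of all tested genes were higher, 1.79% lower and 11.8% called in either direction. The groups did not overlap for 8 members higher and 2 lower, against 40.7% of all tested genes higher and 51.2% in either direction. At an unadjusted p below 0.05 there were 6 of 27 members and 3224 of all 10142 tested genes. The members' median change was 0.22, near the 0.18 of all tested genes. Among all calls of this comparison 84.8% were higher, against 49% to 52% with median-of-ratios, quantile or length-trend scaling and 94.9% in TPM. This count rests on single libraries: without BDL library 2 limma called 0 members and 0 of all tested genes, whereas without sham library 1 it called 6 and without sham library 3 it called 5. It was also 1 among genes with a mean of at least 5 FPKM, 5 with voom on the recovered fragments, 6 in TPM and 7 in the fit of the compared groups alone.

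Against sham, the ligated mice given ligustilide had 20 of 27 members higher and 0 lower, where 43.7% of all tested genes were higher, 8.92% lower and 52.6% called in either direction. The groups did not overlap for 19 members higher and 1 lower, against 45.7% of all tested genes higher and 55.4% in either direction. This comparison shares the sham and BDL+LIG libraries with the others. The members' median was 1.07, and that of the synthesis enzymes 1.20, with 16 of 19 higher. With median-of-ratios scaling 15 members were higher and 3, Ebp, Sc5d and Soat2, were lower. The share of higher genes among all calls was 83% as tested, 49% to 50.3% with those 3 scalings and 91.3% in TPM.

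**Figure D2:**
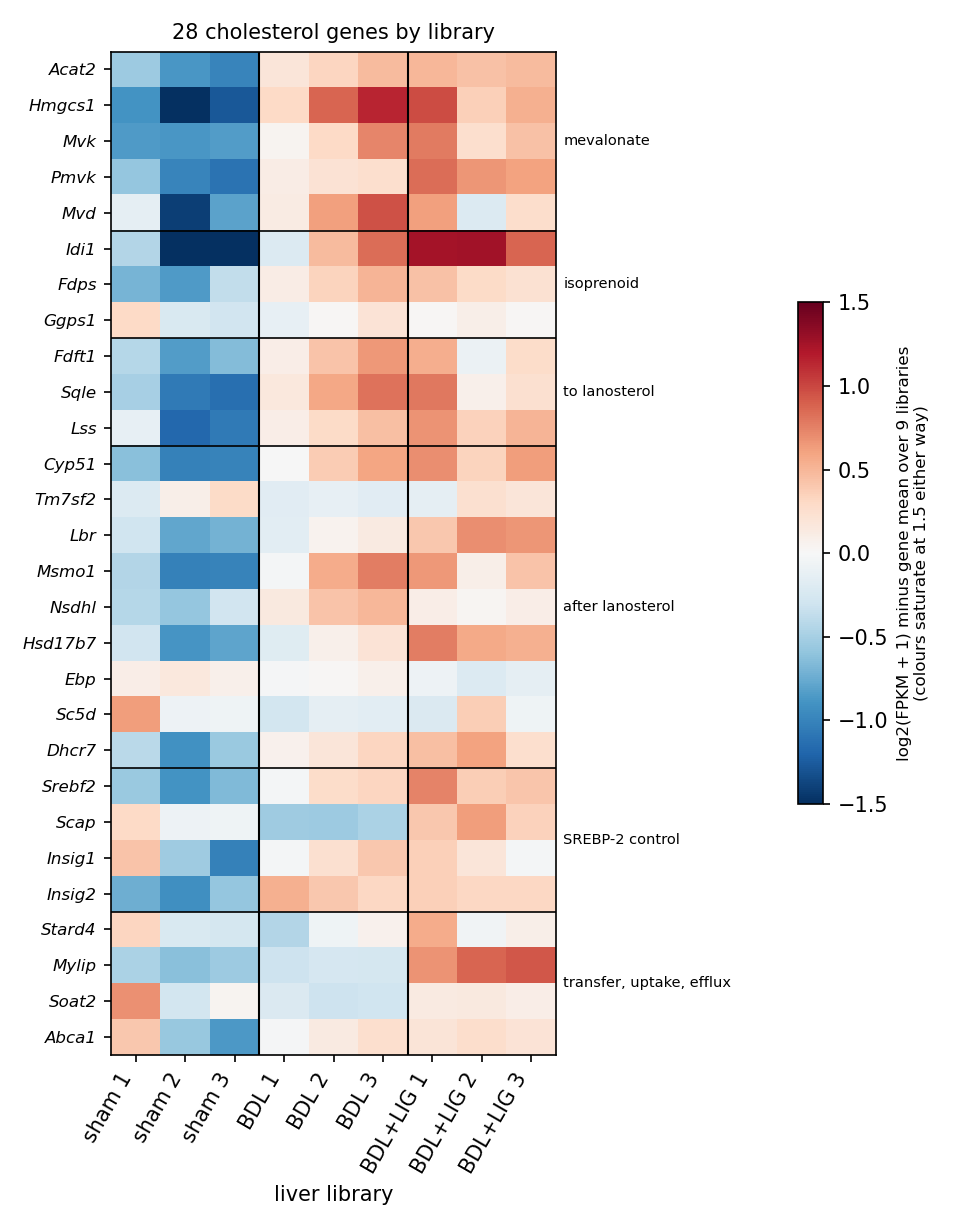
Heat map of the 28 members (rows, grouped by role) in the 9 liver libraries (columns). Colour gives log2(FPKM + 1) minus the gene's mean over the 9 libraries, red above and blue below it. Most synthesis enzymes are blue in sham and red in BDL and BDL+LIG, whereas Tm7sf2, Ebp and Sc5d are not, and Mylip and Scap are red mainly in BDL+LIG.

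The first enzymes turn acetyl-CoA into mevalonate and its phosphates, and the 5 members of this stretch all rose after ligation. Acat2, the cytosolic thiolase that joins acetyl-CoA units, stood at 27.7, 21.9 and 20.1 FPKM in the sham libraries, 46.5, 51.4 and 57.4 in the BDL libraries and 57.9, 55.9 and 57.4 in the BDL+LIG libraries. Its groups did not overlap between sham and either ligated group, and it rose by 1.13 ± 0.13 (adjusted p = 0.000175). Hmgcs1 makes HMG-CoA and had the largest change of the members after ligation. It stood at 65.5, 29.4 and 50.1 FPKM in the sham libraries, 151, 225 and 271 in the BDL libraries and 243, 157 and 178 in the BDL+LIG libraries, a ratio of means of 4.46 for BDL to sham, and rose by 2.17 ± 0.30 (adjusted p = 0.00047). All 6 ligated libraries lay above the highest sham library, and the ligated groups overlapped each other. Mvk, the mevalonate kinase, was the steadiest in sham at 9.06, 8.90 and 9.19 FPKM in the sham libraries, 17.7, 21.4 and 29.2 in the BDL libraries and 30.1, 20.7 and 23.7 in the BDL+LIG libraries. It rose by 1.21 ± 0.18 (adjusted p = 0.000866). Pmvk, the next kinase, stood at 8.34, 6.02 and 5.49 FPKM in the sham libraries, 14.1, 15.3 and 15.7 in the BDL libraries and 24.1, 21.2 and 20.2 in the BDL+LIG libraries and rose by 1.09 ± 0.15 (adjusted p = 0.000435). Here the BDL+LIG libraries also lay wholly above BDL, but the difference of 0.51 ± 0.15 narrowly missed the threshold (adjusted p = 0.0509) and passed it in 5 alternatives, among them voom. Mvd, the decarboxylase that yields isopentenyl diphosphate, stood at 14.8, 5.52 and 8.95 FPKM in the sham libraries, 17.9, 25.6 and 32.8 in the BDL libraries and 25.6, 14.1 and 19.9 in the BDL+LIG libraries. Sham library 1 came close to BDL library 1 and lay above a BDL+LIG library. Mvd rose by 1.35 ± 0.33 (adjusted p = 0.0108), a call that was lost without BDL library 3 (adjusted p = 0.0516).

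In the steps from isopentenyl diphosphate to lanosterol, the 5 tested members rose as well. Idi1, the isomerase that supplies the starter unit of isoprenoids, had the widest range in sham. It stood at 9.52, 3.48 and 1.72 FPKM in the sham libraries, 11.4, 18.9 and 24.5 in the BDL libraries and 32.9, 33.3 and 25.2 in the BDL+LIG libraries. Its sham SD was 0.99 on the log2 scale, it rose by 1.87 ± 0.42 (adjusted p = 0.00781) after ligation, and its difference from sham in BDL+LIG was 2.63 ± 0.42 (adjusted p = 0.000589). The BDL+LIG libraries all lay above those of BDL, with a difference of 0.76 ± 0.42 (adjusted p = 0.24) that was not called. Fdps, which builds farnesyl diphosphate, was the most abundant synthesis enzyme in the ligated livers, at 134, 121 and 169 FPKM in the sham libraries, 235, 276 and 311 in the BDL libraries and 296, 266 and 256 in the BDL+LIG libraries. It rose by 0.96 ± 0.16 (adjusted p = 0.00137). Fdft1, the squalene synthase, stood at 17.8, 13.1 and 15.1 FPKM in the sham libraries, 26.0, 32.9 and 38.6 in the BDL libraries and 35.8, 22.7 and 29.5 in the BDL+LIG libraries and rose by 1.03 ± 0.19 (adjusted p = 0.0029). In the GENCODE M21 annotation 20.9% of its exon bases lie opposite those of the cathepsin gene Ctsb, which averaged 128, 200 and 228 FPKM in the sham, BDL and BDL+LIG groups. The sources used here do not say whether counting used strand, so the values of Fdft1 are uncertain. Sqle, the squalene epoxidase and a slow step of the pathway, stood at 29.1, 19.3 and 18.4 FPKM in the sham libraries, 46.4, 62.4 and 73.6 in the BDL libraries and 72.6, 43.8 and 49.2 in the BDL+LIG libraries. All ligated libraries lay above sham, and Sqle rose by 1.41 ± 0.24 (adjusted p = 0.0016). Lss, which closes squalene epoxide into lanosterol, stood at 11.5, 5.03 and 5.56 FPKM in the sham libraries, 13.6, 15.6 and 17.7 in the BDL libraries and 20.8, 16.3 and 18.4 in the BDL+LIG libraries and rose by 1.07 ± 0.25 (adjusted p = 0.00868).

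After lanosterol the members split. Cyp51, which removes the 14-alpha methyl group, stood at 40.6, 30.9 and 31.2 FPKM in the sham libraries, 63.1, 83.0 and 96.3 in the BDL libraries and 103, 80.1 and 98.7 in the BDL+LIG libraries and rose by 1.20 ± 0.18 (adjusted p = 0.000698). Msmo1, the C4 methyl oxidase, stood at 81.3, 53.9 and 54.4 FPKM in the sham libraries, 108, 162 and 189 in the BDL libraries and 173, 117 and 149 in the BDL+LIG libraries and rose by 1.25 ± 0.24 (adjusted p = 0.003). Both were apart from sham in every ligated library. Nsdhl, which removes the C4 carboxyl group, stood at 47.0, 41.9 and 51.7 FPKM in the sham libraries, 70.2, 85.9 and 89.7 in the BDL libraries and 68.0, 64.5 and 68.1 in the BDL+LIG libraries and rose by 0.79 ± 0.13 (adjusted p = 0.00119). In BDL+LIG it lay wholly below BDL, a difference of -0.28 ± 0.13 (adjusted p = 0.155) that was not called. Against sham its BDL+LIG difference of 0.51 ± 0.13 (adjusted p = 0.00689) shrank to 0.03 with median-of-ratios scaling. Hsd17b7 reduces the 3-keto group. It stood at 7.97, 4.95 and 5.36 FPKM in the sham libraries, 8.66, 10.6 and 11.6 in the BDL libraries and 17.6, 15.2 and 14.9 in the BDL+LIG libraries, rose by 0.69 ± 0.17 (adjusted p = 0.0134) after ligation, and its further difference of 0.59 ± 0.17 (adjusted p = 0.0514) was not called although the groups did not overlap. The first of these calls was lost without sham library 2, BDL library 2 or BDL library 3 (adjusted p from 0.0534 to 0.0647). Dhcr7, the reductase of the last step on one branch, stood at 20.7, 14.3 and 18.6 FPKM in the sham libraries, 29.1, 31.8 and 34.9 in the BDL libraries and 38.5, 42.8 and 33.2 in the BDL+LIG libraries and rose by 0.82 ± 0.15 (adjusted p = 0.00287).

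Ebp, the delta8-delta7 isomerase, and Sc5d, the C5 desaturase, were not called after ligation. Ebp stood at 141, 147 and 139 FPKM in the sham libraries, 130, 133 and 139 in the BDL libraries and 125, 114 and 119.7 in the BDL+LIG libraries, with a change of -0.09 ± 0.10 (adjusted p = 0.562) after ligation and an interval of -0.31 to 0.14 (95% confidence, limma). The sign of that change turned to 0.00 in TPM. Sc5d stood at 112, 68.7 and 68.9 FPKM in the sham libraries, 59.5, 65.8 and 64.5 in the BDL libraries and 61.8, 93.4 and 68.8 in the BDL+LIG libraries. The BDL libraries lay wholly below sham, whose library 1 was far above the others, and the change of -0.35 ± 0.20 (adjusted p = 0.227) was not called. Sc5d was called lower, at -0.61, with median-of-ratios scaling.

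The sterol C14 reductase step has a pair of enzymes, Tm7sf2 in the endoplasmic reticulum and Lbr, the lamin B receptor, in the inner nuclear membrane, and Lbr was called in both comparisons whereas Tm7sf2 was called in neither as tested. The difference between them was not tested. Tm7sf2 stood at 76.0, 93.6 and 107 FPKM in the sham libraries, 77.8, 80.7 and 77.6 in the BDL libraries and 80.0, 104 and 99.3 in the BDL+LIG libraries, and its change of -0.21 ± 0.15 (adjusted p = 0.312) was not called. It was called lower in BDL with the length trend removed (-0.37, adjusted p = 0.0364) and higher in BDL+LIG than in BDL in TPM (0.40, adjusted p = 0.0475). Lbr stood at 1.67, 0.900 and 1.00 FPKM in the sham libraries, 1.93, 2.39 and 2.59 in the BDL libraries and 3.34, 4.31 and 4.17 in the BDL+LIG libraries. It rose by 0.60 ± 0.16 (adjusted p = 0.0196) after ligation and was higher in BDL+LIG than in BDL by 0.58 ± 0.16 (adjusted p = 0.0476), with no overlap in either comparison. The ratio of Tm7sf2 to Lbr FPKM was 85.3 ± 34.6 (SD, n = 3) for sham, 34.7 ± 5.29 for BDL and 24.0 ± 0.194 for BDL+LIG. Sham library 1, at 45.4, lay far below the 104 and 106 of the other sham libraries. The Lbr call in BDL+LIG against BDL was lost in 13 of 18 alternatives, the replicate block included (adjusted p = 0.0848), with adjusted p from 0.00866 to 0.177 over all of them. Its call after ligation was lost in 5, at adjusted p of 0.0527 to 0.0853: without sham library 2 or 3, without BDL library 2 or 3 and with no filter.

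**Figure D3:**
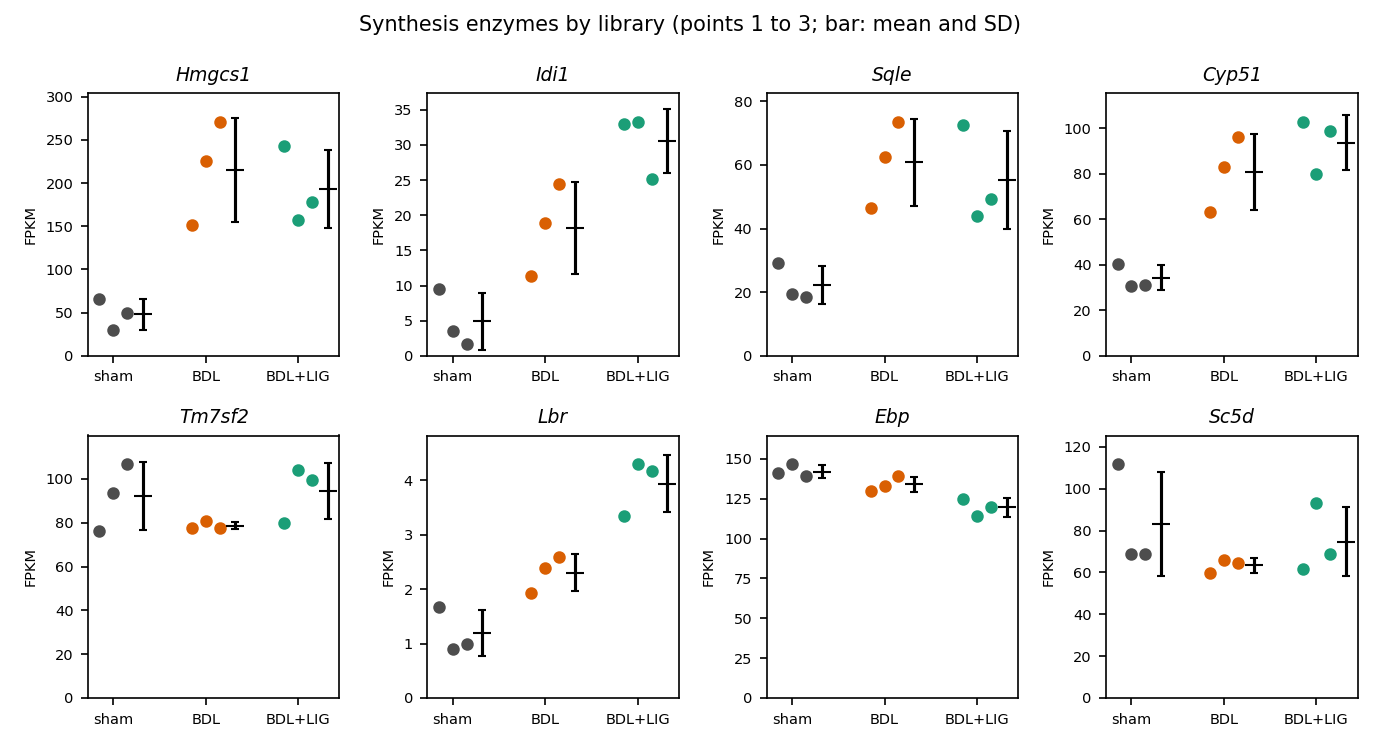
FPKM (linear axis from 0) of 8 synthesis enzymes in the 3 libraries of sham, BDL and BDL+LIG; points are libraries 1 to 3 from left to right, bars the mean and SD. Hmgcs1, Idi1, Sqle and Cyp51 lie above sham in all ligated libraries, Tm7sf2 overlaps between all groups, Sc5d lies below sham in BDL, Ebp lies below sham in BDL+LIG, and Lbr steps up in both ligated groups.

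Of the genes that control the pathway, Srebf2 and Insig2 rose after ligation and Scap fell. Srebf2, which encodes SREBP-2 and is itself one of its targets, stood at 7.21, 5.50 and 6.64 FPKM in the sham libraries, 10.8, 13.6 and 14.1 in the BDL libraries and 19.2, 14.6 and 15.1 in the BDL+LIG libraries. It rose by 0.89 ± 0.15 (adjusted p = 0.00184), and BDL+LIG lay above BDL in every library, by 0.32 ± 0.15 (adjusted p = 0.174), which was not called. Scap encodes the escort of SREBP. It stood at 22.8, 17.4 and 17.5 FPKM in the sham libraries, 12.4, 12.3 and 12.9 in the BDL libraries and 24.7, 29.0 and 23.7 in the BDL+LIG libraries. The BDL libraries lay below every other library of the series, and the groups of each comparison did not overlap. Scap fell by 0.57 ± 0.13 after ligation (adjusted p = 0.00893) and was higher in BDL+LIG than in BDL by 0.98 ± 0.13 (adjusted p = 0.00728), a ratio of means of 2.06. Without BDL library 2 the second difference was 0.97 and missed the threshold (adjusted p = 0.0562), and over all 19 alternatives its adjusted p ran from 0.00178 to 0.0562. Against sham BDL+LIG differed by 0.41 ± 0.13 (adjusted p = 0.0243), but this turned to -0.05 with median-of-ratios scaling and to -0.10 with a trend in gene length removed. The ratio of Scap to Srebf2 FPKM was 2.99 ± 0.302 (SD, n = 3) for sham, 0.988 ± 0.138 for BDL and 1.61 ± 0.348 for BDL+LIG, with no overlap between the groups.

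Of the pair of INSIG genes Insig2 was called after ligation and Insig1 was not, and the difference between them was not tested. Insig1, which SREBP itself induces, stood at 124, 63.6 and 45.0 FPKM in the sham libraries, 90.1, 109 and 122 in the BDL libraries and 118, 105 and 90.6 in the BDL+LIG libraries. Sham library 1 was the highest of all 9 libraries and the other sham libraries were below every ligated one. Its change of 0.57 ± 0.30 (adjusted p = 0.178) was not called, but without sham library 1 it was 0.97 (adjusted p = 0.00263). Insig2, the second INSIG gene of the liver, stood at 8.55, 7.43 and 9.65 FPKM in the sham libraries, 22.1, 20.1 and 18.7 in the BDL libraries and 19.4, 18.7 and 18.7 in the BDL+LIG libraries. It rose by 1.16 ± 0.12 (adjusted p = 7.3e-05), its ligated libraries were all above sham, and the SD over the BDL+LIG libraries was 0.03 on the log2 scale. BDL+LIG differed from BDL by -0.09 ± 0.12 with an interval of -0.36 to 0.18 (95% confidence, limma). The ratio of Insig1 to Insig2 FPKM was 9.25 ± 4.97 (SD, n = 3) for sham, 5.33 ± 1.21 for BDL and 5.50 ± 0.614 for BDL+LIG, with overlap between the groups.

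Mylip had the largest difference of the members between BDL+LIG and BDL. It encodes the ubiquitin ligase IDOL, which LXR receptors induce. It stood at 0.709, 0.533 and 0.632 FPKM in the sham libraries, 0.918, 0.992 and 0.984 in the BDL libraries and 2.78, 3.34 and 3.54 in the BDL+LIG libraries. The lowest BDL+LIG library, at 2.78, stood far above the highest of the other groups, at 0.992, and the difference was 1.10 ± 0.12 (adjusted p = 0.00697), a ratio of means of 3.34. It was lost without BDL library 2 (1.11, adjusted p = 0.0534), and its adjusted p ran from 0.00178 to 0.0534 over 18 alternatives. After ligation alone the groups did not overlap, but the change of 0.28 ± 0.12 (adjusted p = 0.115) was not called and turned to -0.05 with quantile normalization. At this level the scale of log2(FPKM + 1) understates changes: with a pseudocount of 0.1 the difference between BDL+LIG and BDL was 1.64.

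The other members that handle cholesterol were not called in any of the 3 comparisons as tested. Abca1, the exporter of cholesterol to apolipoprotein A-I and likewise an LXR target, averaged 9.16 ± 4.94 FPKM over the sham, 12.0 ± 1.21 over the BDL and 12.9 ± 0.351 over the BDL+LIG libraries (SD, n = 3). Sham library 1 was its highest library at 14.8, and without it Abca1 was higher in BDL by 0.83 (adjusted p = 0.000905). Between BDL+LIG and BDL it differed by 0.10 ± 0.26, with an interval of -0.48 to 0.69 (95% confidence, limma). Soat2, which esterifies cholesterol in hepatocytes, averaged 15.6 ± 5.86, 10.9 ± 0.431 and 14.8 ± 0.317 FPKM in the same order, and its BDL+LIG libraries lay wholly above BDL (0.41 ± 0.20 (adjusted p = 0.191)). Against sham, Soat2 in BDL was at -0.43 ± 0.20 (adjusted p = 0.137), and it was called lower with 3 scalings and without sham library 2. Stard4, a cytosolic sterol carrier, averaged 13.7 ± 3.53, 12.7 ± 2.37 and 16.5 ± 3.97 FPKM, and its groups overlapped throughout.

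**Figure D4:**
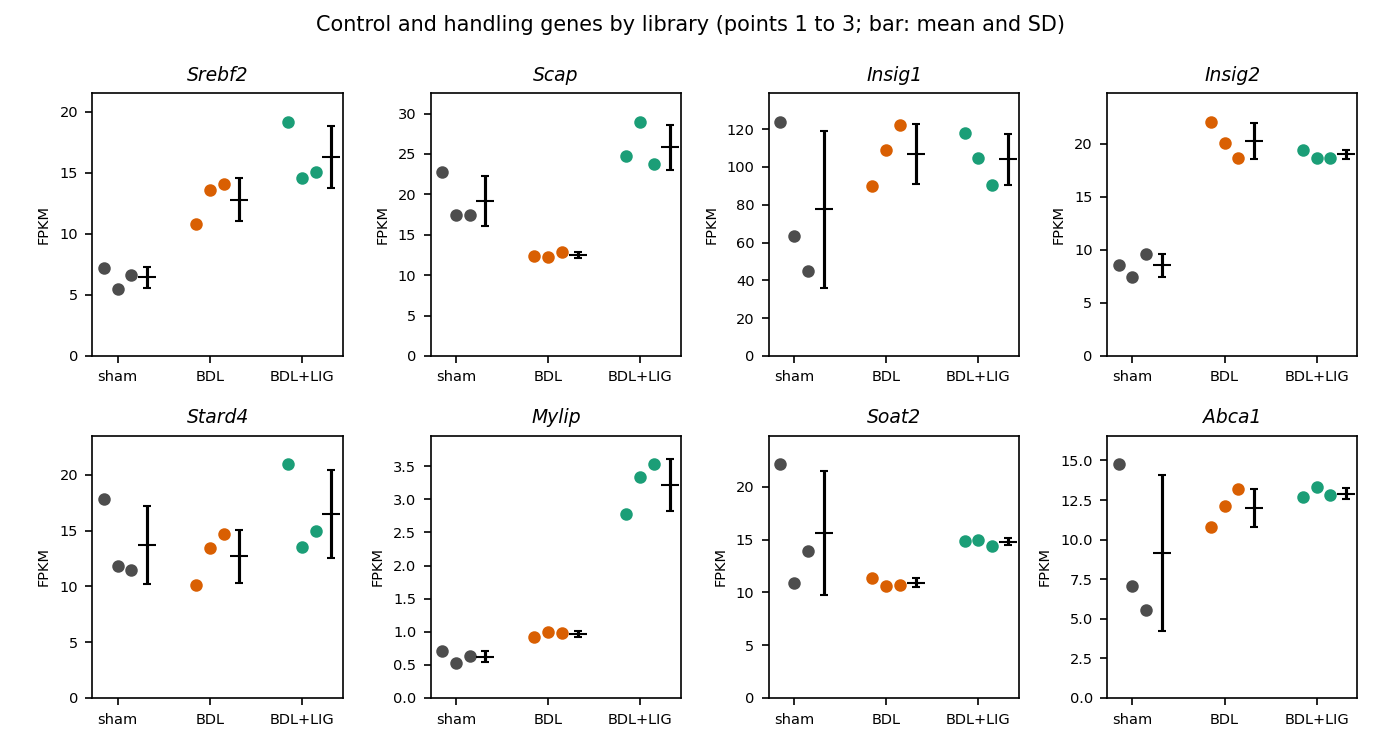
FPKM (linear axis from 0) of the 4 control and 4 handling genes in the 3 libraries of sham, BDL and BDL+LIG; points are libraries 1 to 3 from left to right, bars the mean and SD. Scap is lowest in BDL, Mylip is between 2.78 and 3.54 in BDL+LIG and below 1 elsewhere, and sham library 1 is the highest of its group for Insig1, Soat2 and Abca1.

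The intervals show what the data allow for ligustilide on the enzymes that were not called. For Hmgcs1 the difference between BDL+LIG and BDL was -0.14 ± 0.30 with an interval of -0.80 to 0.52, for Sqle -0.15 ± 0.24 with -0.67 to 0.38, and for Cyp51 0.23 ± 0.18 with -0.17 to 0.62 (95% confidence, limma). For Fdps it was 0.00 ± 0.16 with -0.35 to 0.35, and for Acat2 0.14 ± 0.13 with -0.15 to 0.44. A rise as large as that after ligation lay outside these 5 intervals. For Idi1 the interval of -0.18 to 1.70 was wider, and its upper end came close to the rise of 1.87 after ligation. For Hsd17b7 the interval of 0.21 to 0.97 contained its rise of 0.69 after ligation.

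**Figure D5:**
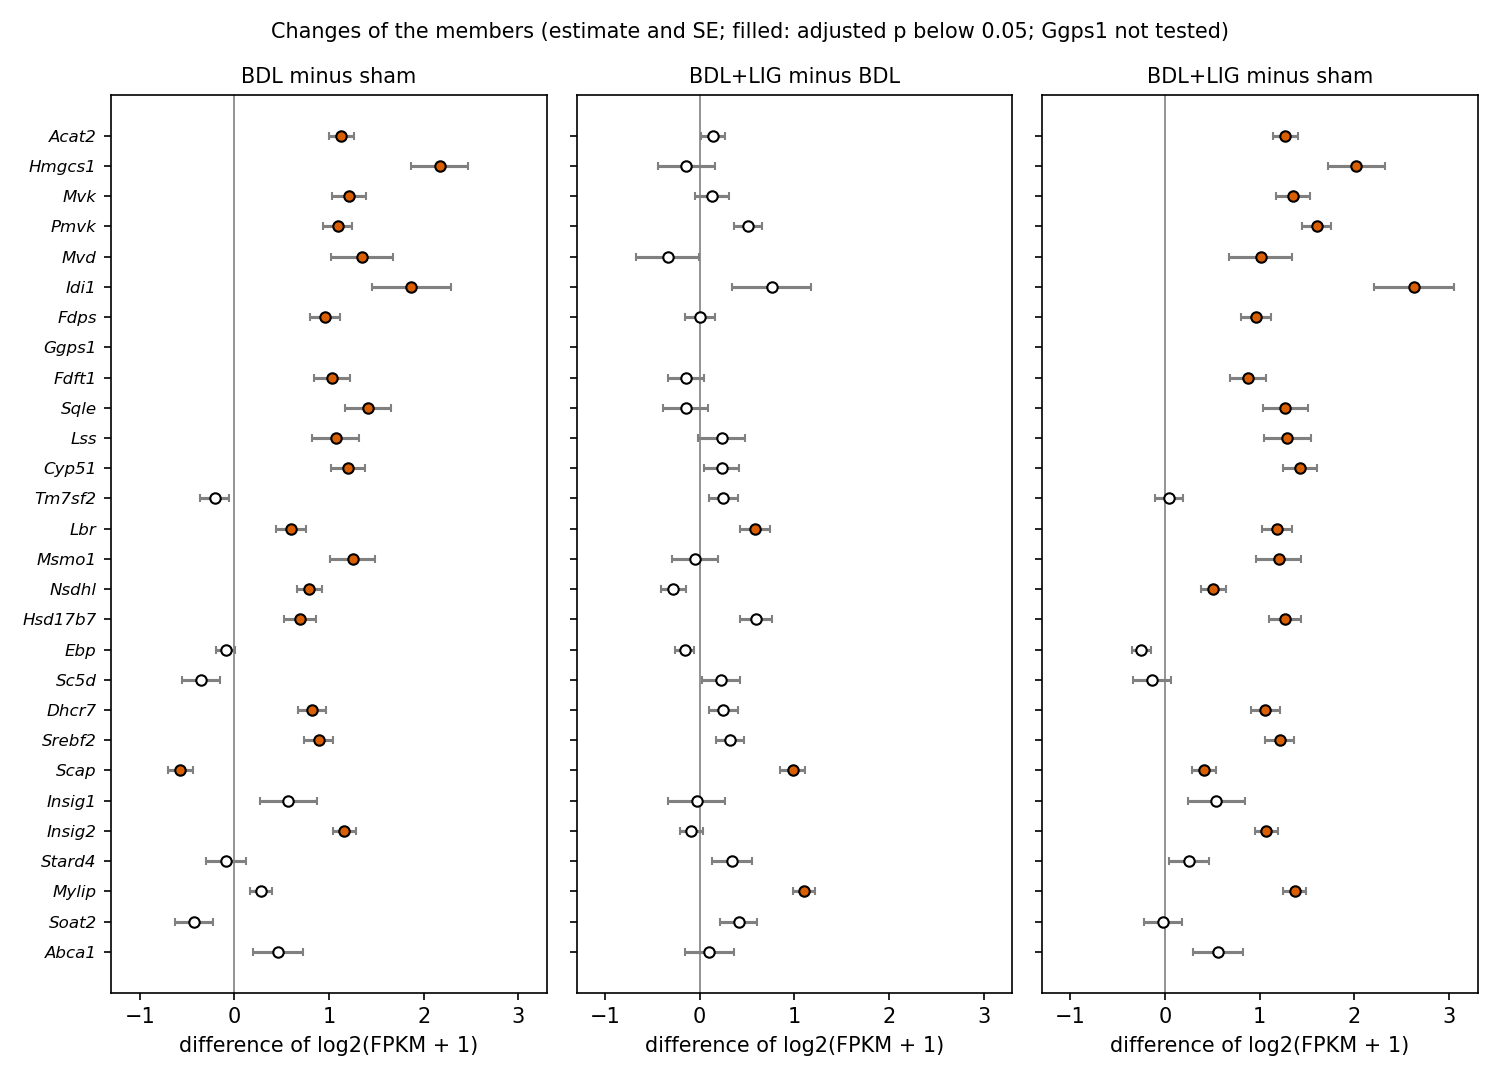
Differences of log2(FPKM + 1) with SE for each member in the 3 comparisons, filled where the adjusted p was below 0.05. In BDL minus sham 18 members lie filled to the right of 0 and Scap to the left, in BDL+LIG minus BDL Lbr, Scap and Mylip are filled, and in BDL+LIG minus sham 20 are filled to the right.

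Most synthesis enzymes had the same library as their lowest or highest within a group. In BDL, library 1 had the lowest value of the 3 for 19 of the 20 synthesis enzymes and library 3 the highest for 18, whereas over all tested genes these shares were 57% and 50.2%. In sham, library 1 was the highest for 15 of 20 (58.3% of all tested genes), and in BDL+LIG library 1 was the highest for 13 (21.4%). The summed FPKM of the 20 enzymes was 857, 689.7 and 781 for sham, 1128, 1401 and 1578 for BDL, and 1509.5, 1287 and 1334 for BDL+LIG, with all ligated libraries above sham. Their share of all FPKM was 0.116% to 0.159% for sham, 0.202% to 0.288% for BDL and 0.258% to 0.308% for BDL+LIG. The median SD of a member on the log2 scale was 0.27 for sham, 0.18 for BDL and 0.17 for BDL+LIG, beside 0.25, 0.10 and 0.15 for all tested genes. As a description over the 9 libraries, which share group and depth, the median Pearson correlation of a member with the synthesis enzymes was 0.94 for Cyp51, 0.93 for Hmgcs1 and Srebf2 and 0.92 for Acat2, but -0.29 for Tm7sf2, -0.24 for Sc5d and -0.60 for Ebp. These values include the differences between the groups. Within groups the median correlation was 0.72 for Cyp51, 0.69 for Hmgcs1, 0.70 for Srebf2 and 0.75 for Acat2, but 0.36 for Fdps, 0.29 for Ebp and Sc5d and -0.60 for Tm7sf2.

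Of 36 further genes of sterol synthesis, SREBP control, LXR, uptake, storage and efflux, all were in the table and 34 were tested. In BDL against sham 10 rose, 2 fell and 22 were not called, with a median of 0.21, beside 22.9% of all tested genes higher, 6.76% lower and a median of 0.16. Named by the smallest p, the rises included Scarb1, the receptor for high density lipoprotein (23.6 ± 1.85 against 45.7 ± 2.38 FPKM in BDL, SD, n = 3, 0.92 ± 0.11 (adjusted p = 0.000159)). Lipa, the lysosomal lipase that frees cholesterol from its esters, rose by 0.91 ± 0.14 (adjusted p = 0.00104). Abcg8, a subunit of the sterol exporter into bile, fell to 8.35 ± 1.15 FPKM in BDL (by 1.14 ± 0.18, adjusted p = 0.00125). The rises were 16 without sham library 1 and 7 with median-of-ratios scaling, and the falls ran from 1 to 4 over the alternatives.

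Of the same 34 genes, 6 were higher in BDL+LIG than in BDL and 0 were lower, with 18 at an unadjusted p below 0.05 and a median of 0.35. Of all 10142 tested genes 9.98% were higher, 1.79% lower and 3224 at an unadjusted p below 0.05, with a median of 0.18. Among them were genes that release or store cholesterol esters: Nceh1, a cholesterol ester hydrolase, by 0.69 ± 0.11 (adjusted p = 0.0128), Soat1, the esterifying enzyme of macrophages and other cells, by 0.63 ± 0.13 (adjusted p = 0.0214), and Lipa by 0.63 ± 0.14 (adjusted p = 0.0235). The count was 0 without BDL library 1, 2 or 3 in turn, 1 without BDL+LIG library 2 or 3, 2 with median-of-ratios scaling, and 16 in TPM or without sham library 1. Against sham 20 of the 34 were higher in BDL+LIG and 1, Abcg8, was lower, beside 43.7% and 8.92% of all tested genes, with 9 higher and 4 lower after median-of-ratios scaling.

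In bulk liver, fewer cells of a type and less RNA per cell cannot be told apart. Of 8 hepatocyte markers 7 were in the table and all 7 were detected. Their summed level was 61458 to 70635 FPKM for sham, 46049 to 53730.4 for BDL and 51941 to 56106 for BDL+LIG. This sum was lower in every BDL library than in any sham library, and a change of the markers as a set was not tested. After ligation 1 of the 7 markers was called higher and 1 lower. In BDL+LIG 0 were higher and 3 lower than in sham, and 0 were called against BDL. Markers of other cells moved with the groups. All 8 macrophage markers rose after ligation, from sums of 74.3 to 105 FPKM in sham to 342 to 469 in BDL, and 7 of 7 tested cholangiocyte markers rose from sums of 20 to 36.2 FPKM in sham to 411 to 608 in BDL. In BDL+LIG against BDL all 5 endothelial markers were higher (25.3 to 28.5 FPKM in BDL, 43.5 to 63.4 in BDL+LIG), as were 2 of 7 stellate cell and 1 of 8 macrophage markers, whose sums were 61.8 to 73.7 and 342 to 469 in BDL and 89.8 to 176 and 388 to 786 in BDL+LIG. All 4 tested neutrophil markers rose after ligation, with sums of 4.11 to 5.6 FPKM in sham, 42.3 to 46.5 in BDL and 15.6 to 39.5 with ligustilide, and 1 of them was lower in BDL+LIG than in BDL. No lymphocyte marker was tested, and their sums were 0.889 to 2.24, 0.97 to 1.93 and 2.64 to 5.81 FPKM in the same order. No marker in the table was at 0 in all libraries. The part of these cells in the differences of Mylip, Lbr, Scap, Soat1 and the other genes was not tested.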

How the data were processed

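Liver RNA was measured in 9 libraries, 3 each of sham, BDL and BDL+LIG. Per the labels' protocols, RNA was extracted with TRIzol and a VAHTS Universal V6 kit was used for the libraries. Programs named without a role in the submitters' processing notes are fastp, HISAT2 2.1.0 and DESeq2, with the build GRCm39. The sources used here do not give the counting program, annotation or strand setting. The authors deposited FPKM per gene, already normalized for gene length and library size, so a count test was not the main test. Whole fragments were recovered from the steps of the values for 19449 of 19449 genes above 0 in at least 2 libraries (tolerance 0.02).

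Here log2(FPKM + 1) of the 10142 of 21470 genes reaching 1 FPKM in 3 or more libraries was fitted over all 9 libraries with limma 3.58.1 (R 4.3.3, lmFit and eBayes with a trend), with Benjamini-Hochberg adjustment within each comparison and a threshold of 0.05. The fit was also run on simulated data with the same dispersion for all genes and groups, unlike the wider spread of sham here. That run therefore does not show how the fit performs on these data. The members, gene lists and marker lists were chosen with earlier results of these data known. Members called in BDL against sham or BDL+LIG against BDL are given by library, the others by group means or by library where they bear on a result, and up to 4 of the further pathway genes are named per comparison by smallest p, of which 1 is not reported here. Alternatives changed the pseudocount, filter, scaling, samples fitted, tool and replicate block, and left out each library. Exon overlaps were read from GENCODE M21 on GRCm38, and promoters are from RefSeq on GRCm38.p6.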

Additional observations from a re-analysis of the deposited data

How the results depend on the processing

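With 3 libraries a group and no known link to separate mice, the precision rests on few values, and calls in BDL+LIG against BDL moved most. Of the members called, 16 of 19 in BDL against sham, 0 of 3 in BDL+LIG against BDL and 15 of 20 in BDL+LIG against sham kept their call under every alternative that gave them a value. These were 19, but 18 for Lbr and Mylip, which fell below the filter at a mean of at least 5 FPKM. Sign changes under an alternative numbered 4, 34 and 14 in the 3 comparisons, and 2 of these, both for Scap in BDL+LIG against sham, were of a called member. The causes were not tested.

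Members called lower in BDL against sham numbered 1 as tested and 3 with median-of-ratios scaling, 2 after quantile normalization and 4 with a trend in gene length removed. Members higher in BDL+LIG against BDL numbered 3 as tested, 1 at a mean of at least 5 FPKM, 6 in TPM, 7 with the 2 compared groups alone and 5 with voom. Members lower in BDL+LIG against sham numbered 0 as tested, 1 with no filter, 3 with median-of-ratios scaling and 2 with the length trend removed. All genes called numbered 3008 in BDL against sham and 1838 at a mean of at least 5 FPKM, and 5335 in BDL+LIG against sham and 2765 at that mean. For BDL+LIG against BDL they numbered 1194 as tested, 623 with no filter, 575 at that mean, 686 with median-of-ratios scaling, 1926 in TPM, 498 with the length trend removed and 3433 with the 2 groups alone. Further pathway genes lower in BDL against sham numbered 2 as tested, 1 with no filter or in TPM and 4 with the length trend removed. Between BDL+LIG and BDL 6 were higher as tested, 2 with median-of-ratios scaling or the length trend removed, 16 in TPM and 18 with the 2 groups alone. In BDL+LIG against sham 20 were higher as tested, 9 with median-of-ratios scaling, 11 after quantile normalization and 9 with the length trend removed, and 1 was lower as tested, 0 with no filter or in TPM and 4 with median-of-ratios scaling or the length trend removed.

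Correlations of deviations between same-numbered libraries ran from -0.13 to 0.28, with 0.25 and 0.28 for sham and BDL+LIG libraries 1 and 3. Differently numbered libraries were not compared, so these values cannot decide whether the numbers pair the libraries. With the replicate block the calls over all genes were 2782, 742 and 5125 in BDL against sham, BDL+LIG against BDL and BDL+LIG against sham, the members higher were 18, 2 and 20, and the further genes higher were 10, 5 and 19.

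Leaving out each library in turn, members higher ran from 15 to 20 in BDL against sham, from 0 to 6 in BDL+LIG against BDL and from 18 to 22 in BDL+LIG against sham, and members lower from 1 to 2, 0 to 0 and 0 to 1. All genes called ran from 1894 to 4668, from 0 (without BDL library 2; 40 and 54 without libraries 1 and 3) to 3144 (without sham library 1), and from 4505 to 6922. Further genes higher ran from 9 to 16, 0 to 16 and 16 to 23, and lower from 1 to 3, 0 to 0 and 0 to 2. Single members changed sign over these fits: in BDL+LIG against BDL Fdft1 from -0.30 to 0.02, Fdps from -0.11 to 0.10, Hmgcs1 from -0.38 to 0.04, Insig1 from -0.15 to 0.07, Msmo1 from -0.28 to 0.12, Mvk from -0.03 to 0.32 and Sqle from -0.36 to 0.00; in BDL+LIG against sham Sc5d from -0.31 to 0.10, Soat2 from -0.24 to 0.24 and Tm7sf2 from -0.09 to 0.15; in BDL against sham Stard4 from -0.19 to 0.10.

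Other signs turned with the scaling. In BDL against sham Ebp was 0.00 in TPM and Mylip -0.05 with quantile normalization. Between BDL+LIG and BDL, median-of-ratios scaling gave Acat2 -0.07, Mvk -0.08, Sc5d 0.00 and Abca1 -0.10, TPM gave Hmgcs1 0.01, Fdps 0.15, Sqle 0.00, Msmo1 0.10, Insig1 0.12 and Insig2 0.05, quantile normalization gave Fdps 0.10, Msmo1 0.04 and Abca1 -0.04, and the length trend removed gave Fdps 0.02, Lss -0.11, Cyp51 -0.05, Sc5d -0.08, Dhcr7 -0.04 and Abca1 -0.25. Between BDL+LIG and sham, median-of-ratios scaling gave Tm7sf2 -0.44, Scap -0.05 and Stard4 -0.20, quantile normalization gave Stard4 -0.04, TPM gave Sc5d 0.10 and Soat2 0.21, and the length trend removed gave Tm7sf2 -0.10, Scap -0.10 and Stard4 -0.26.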
